A study of Mus musculus with 6 samples.

Results

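Catecholamine neurons make dopamine, noradrenaline or adrenaline, and a small set of transcripts marks them. The genes described here are those whose symbol in the deposited expression table was Th, Ddc, Dbh, Gch1, Slc18a2, Slc6a2, Slc6a3 or Phox2a, chosen by name as the synthesis, storage, reuptake and transcription factor genes of these neurons. Of 9 genes on the list, 8 had a row among the 18058 genes of the table, and Pnmt, which encodes the enzyme that makes adrenaline, was not analysed here. RNA sequencing had been used to compare whole brainstems, snap-frozen at 1 month of age, from C57BL/6J wild type (WT) mice and from Rag1-/- mice (B6.129S7-Rag1tm1Mom/J), with 3 independent mice of each genotype. Rag1 encodes a subunit of the enzyme that rearranges antigen receptor loci, and mice without it have no mature lymphocytes of the T and B lineages. The deletion is constitutive, so every cell of the brainstem carries it. Values are CPM, read counts scaled to library size, and differences between the genotypes were tested by limma-trend on log2(CPM + 0.1), a scale that understates the change of low transcripts, with Benjamini-Hochberg adjustment over the 16762 genes that averaged at least 0.1 CPM. All 8 genes passed this filter.

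Several libraries stood apart in ways that bear on every value below. Transcripts of the targeted gene, Rag1, were at 0.115 to 0.388 CPM in WT and, at 2.60 to 4.02 CPM, were more abundant in the libraries labelled Rag1-/-, for which reason the latter are called mutant-labelled. WT replicates 1 and 2 held 172 and 177 CPM of Xist, which was at 0.462 to 2.93 CPM in the other 4 libraries. High Xist was thus found only in WT libraries and is partly confounded with genotype. The study used mice of both sexes. A fit with a term for Xist, given below, compares the mutant-labelled libraries with WT replicate 3 alone. The summed hindbrain Hox markers were at 2.60 CPM in mutant-labelled replicate 2 and at 14.3 to 46.0 CPM elsewhere, whereas WT replicate 3 held the most cerebellum markers (373 CPM, against 64.3 to 152 CPM elsewhere) and hypothalamus markers (240 CPM, against 30.9 to 129.5 CPM). Without WT replicate 3 and mutant-labelled replicate 2, the differences of the 8 genes, their ratios and the differences of most other genes named from the lists were computed again, and the value is given where this changed a direction or a call. Estimated depth was 31600000 to 46400000 reads a library, so that 3 reads equalled 0.0646 to 0.0950 CPM.

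All catecholamines start from tyrosine. Tyrosine hydroxylase (Th) makes L-DOPA with a tetrahydrobiopterin cofactor, whose first synthetic step is carried out by GTP cyclohydrolase (Gch1), and aromatic amino acid decarboxylase (Ddc) turns L-DOPA into dopamine. The vesicular monoamine transporter VMAT2 (Slc18a2) loads dopamine into vesicles, where dopamine beta-hydroxylase (Dbh) converts it to noradrenaline in noradrenergic cells. The noradrenaline transporter (Slc6a2) and the dopamine transporter (Slc6a3) return the released transmitter to the neuron, and the homeodomain factor Phox2a is needed for noradrenergic cells such as those of the locus coeruleus to form. Serotonin neurons of the raphe also use Ddc, Gch1 and Slc18a2, so these transcripts are not restricted to catecholamine cells. Th, Dbh and Slc6a2 are shared by the noradrenergic cell groups of the pons and medulla, and Slc6a3 is typical of the dopamine neurons of the ventral midbrain.

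Promoter sequences are shown for Th and Slc18a2, whose start sites share an 8-base palindrome, for Dbh, a noradrenergic gene with homeodomain core motifs, and for Phox2a, the gene with the largest difference between the genotypes. They come from RefSeq on GRCm38.p6, run 5′ to 3′ on the strand of the gene, and span 250 bases before to 50 bases after the transcription start. RefSeq sequences were matched for 7 of the 8 genes, Slc6a2 being named only. Capitals mark TGACG or its reverse complement CGTCA in Th (chr7:142899946-142900245, minus strand) and Slc18a2 (chr19:59260628-59260927, plus strand), ATTA or TAAT in Dbh (chr2:27165257-27165556, plus strand), and GGGCGG or CCGCCC in Phox2a (chr7:101818063-101818362, plus strand).
Th: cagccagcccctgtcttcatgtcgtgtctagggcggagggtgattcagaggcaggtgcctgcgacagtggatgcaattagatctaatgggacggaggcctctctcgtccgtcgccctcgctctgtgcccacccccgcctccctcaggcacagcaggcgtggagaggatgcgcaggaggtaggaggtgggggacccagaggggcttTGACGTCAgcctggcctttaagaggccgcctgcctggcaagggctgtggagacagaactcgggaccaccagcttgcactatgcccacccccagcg
Slc18a2: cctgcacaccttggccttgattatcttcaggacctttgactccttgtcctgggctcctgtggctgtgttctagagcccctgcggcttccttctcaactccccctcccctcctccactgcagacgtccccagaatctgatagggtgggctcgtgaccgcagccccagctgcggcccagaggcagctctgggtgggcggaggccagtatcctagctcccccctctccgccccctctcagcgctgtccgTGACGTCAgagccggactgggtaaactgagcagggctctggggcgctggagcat
Dbh: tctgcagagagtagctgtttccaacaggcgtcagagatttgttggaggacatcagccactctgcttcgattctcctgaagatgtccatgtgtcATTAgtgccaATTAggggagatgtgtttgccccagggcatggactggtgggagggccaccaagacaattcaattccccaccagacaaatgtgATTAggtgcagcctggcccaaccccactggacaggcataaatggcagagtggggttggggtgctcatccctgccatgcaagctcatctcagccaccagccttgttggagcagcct
Phox2a: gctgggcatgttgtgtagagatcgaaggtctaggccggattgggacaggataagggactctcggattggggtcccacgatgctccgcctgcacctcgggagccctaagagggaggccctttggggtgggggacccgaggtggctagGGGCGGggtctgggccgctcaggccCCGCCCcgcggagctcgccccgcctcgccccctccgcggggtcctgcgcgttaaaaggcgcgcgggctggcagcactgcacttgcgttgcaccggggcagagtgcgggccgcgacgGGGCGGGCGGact

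In Th and Slc18a2 the 2 overlapping TGACG matches form TGACGTCA, the cAMP response element palindrome, beginning 45 bases before the start of Th and 4 bases before that of Slc18a2. This palindrome is in 1.79% of 32851 RefSeq promoters of the same length, and in no other promoter of the 7 matched genes. The shorter TGACG, on either strand, is in 20.8% of promoters and also in those of Gch1 and Dbh. ATTA, the core bound by many homeodomain proteins, matched at 3 places in Dbh and also in Th, Ddc and Slc18a2, and is in 58.0% of promoters. GGGCGG, a core bound by Sp1 family factors, matched at 4 places in Phox2a and also in Th, Gch1, Slc18a2 and Slc6a3, against 35.7% of promoters. These matches describe letters in a window, and binding was not measured.

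Transcripts of all 8 genes were detected in all 6 libraries. Divided by transcript length, the level was highest for Ddc, at 19.8 ± 2.74 CPM per kb (SD, n = 6), followed by Th at 17.0 ± 1.29 and Slc6a3 at 16.0 ± 1.74 CPM per kb. Slc18a2 stood at 10.4 ± 1.99 and Dbh at 6.38 ± 0.714 CPM per kb. The noradrenaline transporter and the cofactor enzyme were lower still, with Slc6a2 at 2.86 ± 0.344 and Gch1 at 2.25 ± 0.563 CPM per kb. Phox2a was lowest, at 0.358 ± 0.129 CPM per kb. The dopamine transporter transcript was thus more abundant per length than the noradrenergic pair Dbh and Slc6a2 in every library. Of neighbours in this order, Ddc was above Th and Th above Slc6a3 in 6 of 6 libraries, but their means were only 1.16 and 1.07 times apart and their ranges over the libraries overlapped. Slc6a2 was above Gch1 in 4 of 6 libraries, again with overlapping ranges, whereas the ranges of the other neighbours did not overlap. The step from Gch1 to Phox2a was the widest, at 6.29 times.

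**Figure D1:**
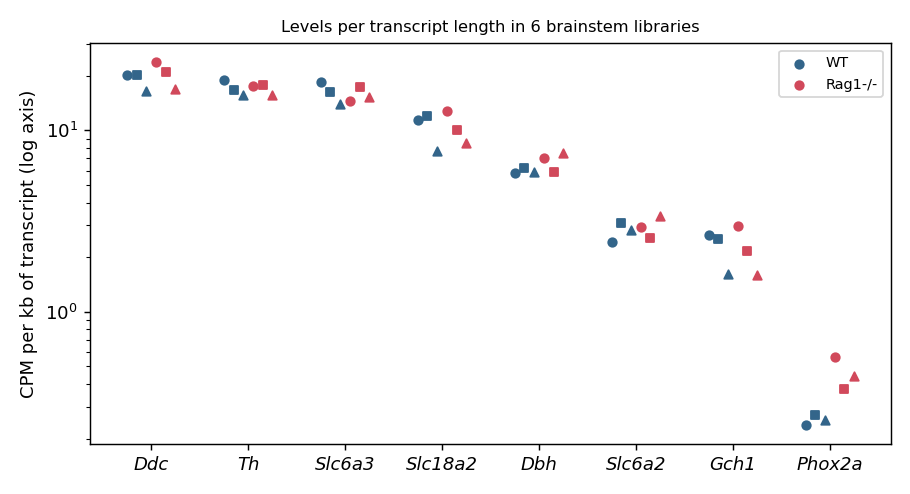
Levels of the 8 transcripts in CPM per kb of transcript (log axis), 1 point a library, blue for WT and red for mutant-labelled libraries, with circle, square and triangle for replicates 1, 2 and 3. Ddc, Th and Slc6a3 lie close together at the top, and Phox2a lies 6.29 times below Gch1 in the mean.

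Rag1-/- mice were one of the hosts in which the study grew tumours, and the comparison here asks whether transcripts of catecholamine neurons differed between the genotypes in brainstems of 1-month-old mice. None of the 8 passed an adjusted p of 0.05 by limma-trend, against 0.0477% of all tested genes (8 genes, a count that was 24 without WT replicate 3, 5 without mutant-labelled replicate 2 and 2 without mutant-labelled replicate 1 or 3), and 1 of 8 had an unadjusted p of at most 0.05, against 11.6% (2.27% higher and 9.29% lower in the mutant-labelled libraries). That gene was Phox2a, which was also the only one whose values did not overlap between the genotypes, being higher in the mutant-labelled libraries, a separation found for 3.98% of all tested genes in this direction. No member was lower in all 3 mutant-labelled libraries, against 14.4% of all tested genes. Of the 8 differences 5 were above 0 and 3 below, with a median log2 fold change of 0.05, against -0.05 over all tested genes. Without the 2 libraries named above 3 were above 0 and 5 below, with a median of -0.05 for the 8 genes and for all tested genes alike. In bulk tissue, fewer cells of a type and less RNA per cell cannot be told apart.

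**Figure D2:**
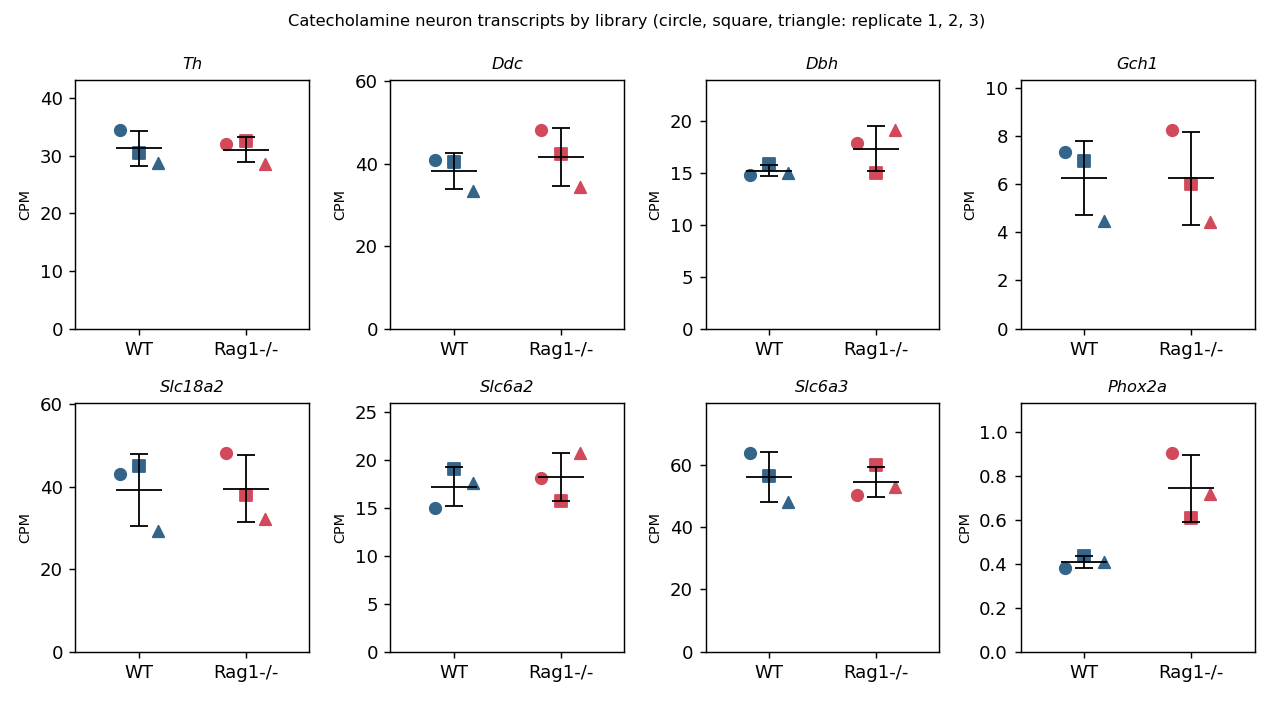
CPM of each gene in the 6 libraries (linear axes from 0), with circle, square and triangle for replicates 1, 2 and 3, a line for the mean and bars for the SD (n = 3). Phox2a is the only gene whose groups do not overlap, with 0.380 to 0.437 CPM in WT and 0.607 to 0.906 CPM in mutant-labelled libraries.

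Th, which encodes the rate-limiting enzyme (chromosome 7, 142892776 to 142899966, minus strand, mm10), was at 34.5, 30.5 and 28.7 CPM in WT brainstems (replicates 1, 2 and 3, in this order here and below) and at 32.1, 32.6 and 28.5 CPM in the mutant-labelled libraries. The groups overlapped almost entirely, and the highest library was only 1.21 times the lowest. Their means were 31.3 ± 2.97 and 31.1 ± 2.23 CPM (SD, n = 3), and the log2 fold change was -0.0079 (standard error 0.08, 95% interval -0.19 to 0.17, adjusted p = 0.977 by limma-trend). The interval bounds a difference in Th to between 0.876 and 1.13 times the WT level on the fitted scale.

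Ddc (chromosome 11, 11814101 to 11898144, minus strand) was at 40.9, 40.5 and 33.3 CPM in WT and at 48.3, 42.4 and 34.3 CPM in the mutant-labelled libraries. Mutant-labelled replicates 1 and 2 were the highest and WT replicate 3 the lowest, with the remaining libraries interleaved. The log2 fold change was 0.12 (standard error 0.12, 95% interval -0.17 to 0.40, adjusted p = 0.742 by limma-trend). It was -0.00059 without the 2 libraries named above.

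Dbh, the noradrenergic enzyme gene (chromosome 2, 27165507 to 27183204, plus strand), was at 14.8, 15.9 and 15.0 CPM in WT and at 17.9, 15.0 and 19.2 CPM in the mutant-labelled libraries. Mutant-labelled replicates 3 and 1 were above every WT library, and replicate 2 lay within the WT range. The means were 15.2 ± 0.573 and 17.4 ± 2.15 CPM (SD, n = 3), and the log2 fold change was 0.18 (standard error 0.09, 95% interval -0.03 to 0.39, adjusted p = 0.487 by limma-trend). Without the 2 libraries named above it was 0.27 (adjusted p = 0.311 by limma-trend), and without mutant-labelled replicate 2 alone 0.28 (adjusted p = 0.471 by limma-trend). In both of these fits the unadjusted p was under 0.05. Without mutant-labelled replicate 3 the difference was smaller, at 0.10 (adjusted p = 0.715 by limma-trend). Mutant-labelled replicate 2 was the library with the fewest hindbrain Hox transcripts, and the part of this in the Dbh values was not tested.

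Gch1 (chromosome 14, 47153895 to 47189402, minus strand) was the most variable of the enzyme transcripts, at 7.32, 6.96 and 4.48 CPM in WT and at 8.26, 6.02 and 4.41 CPM in the mutant-labelled libraries. Replicate 3 was the lowest library in both genotypes, and the highest library was 1.87 times the lowest. The log2 fold change was -0.02 (standard error 0.24, adjusted p = 0.982 by limma-trend). Its 95% interval, -0.57 to 0.54, is about 3 times as wide as that of Th, so a moderate difference in Gch1 was not detectable with these libraries.

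Slc18a2, the vesicular transporter gene (chromosome 19, 59260878 to 59296012, plus strand), was at 43.2, 45.1 and 29.3 CPM in WT and at 48.3, 38.1 and 32.2 CPM in the mutant-labelled libraries. As for Gch1, the lowest library of each genotype was replicate 3, and the groups overlapped. The log2 fold change was 0.02 (standard error 0.18, 95% interval -0.40 to 0.43, adjusted p = 0.977 by limma-trend), and -0.16 without the 2 libraries named above. With the Xist term, where WT replicate 3 is the only WT library compared, it was 0.41.

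Of the reuptake transporters, Slc6a2 (chromosome 8, 92961047 to 93001667, plus strand) was at 15.0, 19.0 and 17.6 CPM in WT and at 18.2, 15.7 and 20.8 CPM in the mutant-labelled libraries. The highest and the second lowest libraries were both mutant-labelled, and the log2 fold change was 0.08 (standard error 0.12, 95% interval -0.19 to 0.34, adjusted p = 0.813 by limma-trend). Slc6a3, the dopamine transporter gene (chromosome 13, 73536747 to 73578672, plus strand), was at 63.9, 56.5 and 48.0 CPM in WT and at 50.4, 59.9 and 53.0 CPM in the mutant-labelled libraries. Both the highest and the lowest library were WT, and the log2 fold change was -0.04 (standard error 0.10, 95% interval -0.27 to 0.20, adjusted p = 0.907 by limma-trend). Without the 2 libraries named above the Slc6a3 difference was -0.22 (adjusted p = 0.342 by limma-trend), with an unadjusted p under 0.05.

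Phox2a (chromosome 7, 101818313 to 101822726, plus strand), the one transcription factor of the set, was at 0.380, 0.437 and 0.409 CPM in WT and at 0.906, 0.607 and 0.716 CPM in the mutant-labelled libraries. Every mutant-labelled library was above every WT library, and the WT values lay close together. The means were 0.409 ± 0.0282 and 0.743 ± 0.152 CPM (SD, n = 3), and the log2 fold change was 0.71 (standard error 0.21, 95% interval 0.23 to 1.20, adjusted p = 0.340 by limma-trend), which does not pass the adjustment. By an exact two-sided permutation test p was 0.1, the smallest that 3 libraries against 3 allow. These levels rest on few reads, an estimated 16.1, 20.3 and 14.2 in WT and 31.4, 19.1 and 25.1 in the mutant-labelled libraries. Without the 2 libraries named above the log2 fold change was 0.84 (adjusted p = 0.349 by limma-trend), and over the 16 alternatives in which Phox2a was tested the adjusted p was between 0.314 and 0.739. On log2(CPM + 1) the log2 fold change of Phox2a was 0.30. With a term for Xist, which leaves WT replicate 3 as the only WT library compared, it was 0.71. The end of Phox2a overlaps the oppositely transcribed Inppl1, an inositol phosphatase gene, by 95 bases in the GENCODE M21 annotation, and whether the counting used strand is not given in the sources used here. Inppl1 was at 49.8, 51.5 and 53.6 CPM in WT and at 56.0, 61.1 and 58.4 CPM in the mutant-labelled libraries, also higher without overlap. Its log2 fold change was 0.18 (adjusted p = 0.335 by limma-trend), and 0.13 with the Xist term. The part of Inppl1 in the Phox2a values was not tested.

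**Figure D3:**
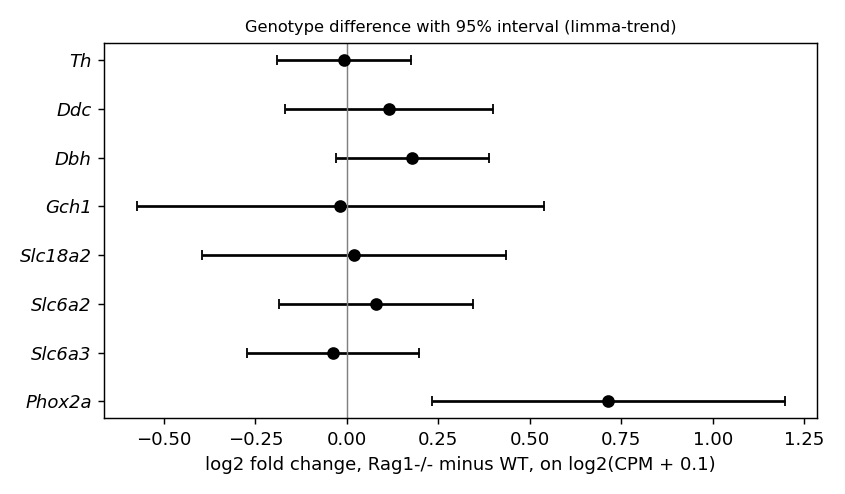
Log2 fold change of each gene on log2(CPM + 0.1), mutant-labelled libraries minus WT, with its 95% interval from limma-trend (n = 3 a group). The interval of Phox2a, 0.23 to 1.20, is the only one that does not include 0, and none of the genes passed the adjusted threshold.

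Ratios within a library, formed on CPM + 0.1, depend little on how the library was scaled. The log2 ratio of Th to Dbh was 1.21, 0.94 and 0.94 in WT and 0.84, 1.12 and 0.57 in the mutant-labelled libraries, and the groups overlapped (difference -0.19, exact two-sided permutation p = 0.4). For Slc6a3 to Dbh, a dopaminergic over a noradrenergic transcript, it was 2.10, 1.82 and 1.67 in WT and 1.49, 1.99 and 1.46 in the mutant-labelled libraries (difference -0.22, exact permutation p = 0.3). For Slc6a2 to Dbh, both noradrenergic, the ratio was 0.02 to 0.26 in WT and 0.02 to 0.11 in the mutant-labelled libraries (difference -0.10, exact permutation p = 0.4). The ratio of Ddc to Th was 0.24, 0.41 and 0.21 in WT and 0.59, 0.38 and 0.27 in the mutant-labelled libraries (difference 0.12, exact permutation p = 0.4). With all 6 libraries the groups separated in none of the 4 ratios (exact permutation p = 0.4 for each after Benjamini-Hochberg adjustment over the 4), and with 3 libraries a group p cannot go below 0.1. Without the 2 libraries named above the groups separated for Th to Dbh (difference -0.37) and for Slc6a3 to Dbh (difference -0.49), each with an exact permutation p of 0.333, the smallest that 2 libraries against 2 allow. Without mutant-labelled replicate 2 alone, Th to Dbh differed by -0.32 (exact permutation p = 0.1, the smallest that 3 against 2 allow).

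The members varied between libraries in partly separate patterns, given here as descriptions over 6 libraries of 2 genotypes. Gch1 and Slc18a2 went together most closely (Pearson r = 0.975 on the log2 scale), and Ddc went with both (r = 0.927 with Gch1 and 0.906 with Slc18a2). These are the 3 members that serotonin neurons also use. Tph2, which encodes the serotonin-synthesis enzyme of the brain, was at 30.7, 29.6 and 10.0 CPM in WT and at 58.0, 22.7 and 12.3 CPM in the mutant-labelled libraries, and Slc6a4, the serotonin transporter gene, was at 24.1, 21.8 and 7.96 CPM and at 40.4, 17.1 and 10.1 CPM. Both were highest in mutant-labelled replicate 1 and lowest in WT replicate 3, with a wider range than any member. Fev and Lmx1b were also highest in mutant-labelled replicate 1, whereas Gata2, Gata3 and Htr1a, the other 3 of the 7 serotonin neuron markers, were highest in a WT library and ranged less, at most 1.58 times from lowest to highest. With Tph2, r was 0.972 for Slc18a2, 0.964 for Ddc and 0.977 for Gch1, but 0.714 for Th, 0.299 for Slc6a3 and 0.0628 for Dbh. The 7 serotonin neuron markers summed to 48.4 to 92.4 CPM in WT and 57.5 to 139 CPM in the mutant-labelled libraries, 0 of 7 passed an adjusted p of 0.05 or an unadjusted p of at most 0.05 by limma-trend, and none of their groups separated. The part of serotonin neuron RNA in the Ddc, Gch1 and Slc18a2 values was not tested.

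Th and Slc6a3 shared the same highest library, WT replicate 1 (r = 0.751), and Th ran opposite to Slc6a2 (r = -0.809). Th also went with Gch1 (r = 0.791), Ddc (0.737) and Slc18a2 (0.706). The 2 noradrenergic genes Dbh and Slc6a2 had their highest value in mutant-labelled replicate 3 and their lowest in WT replicate 1 (r = 0.806). Phox2a was ordered much like Dbh (r = 0.776) and less like Slc6a2 (r = 0.423), and the higher values of both Phox2a and Dbh in mutant-labelled libraries enter these figures.

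**Figure D4:**
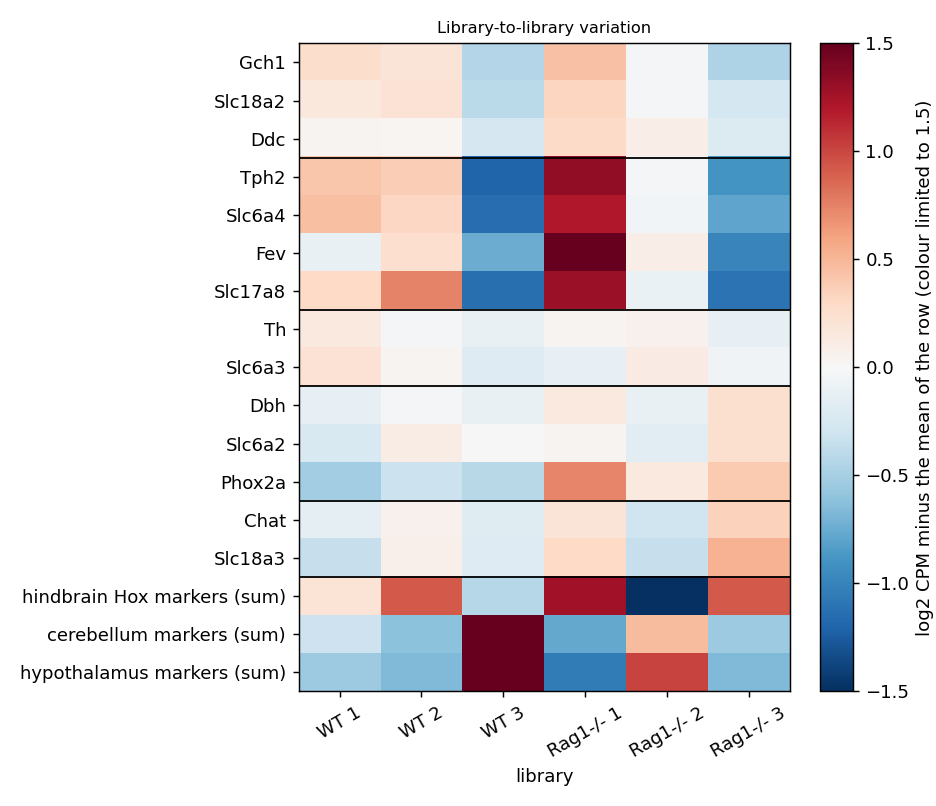
Level of each transcript or marker sum in each library as log2 CPM minus the mean of its row (red above, blue below, colour limited to 1.5 in either direction). Gch1, Slc18a2, Ddc, Tph2 and Slc6a4 are all highest in mutant-labelled replicate 1 and lowest in replicate 3 of both genotypes, with Tph2 and Slc6a4 ranging more widely, and the Hox marker sum is lowest in mutant-labelled replicate 2.

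Among 2035 genes that averaged 1 CPM or more and had an SD of at least 0.2 on the log2 scale, the 5 most like Th over the 6 libraries were Lenep (r = 0.990), Usp43 (0.973), Ccdc190 (0.971), Odf3b (0.964) and Pgbd1 (0.949). For Dbh they were Slc18a3, the vesicular acetylcholine transporter gene (r = 0.971), Rsad2 (0.970), Chat, which encodes the enzyme of acetylcholine synthesis (0.945), Slc30a2 (0.933) and Sncg (0.922). Levels of Slc18a3 were 11.7, 15.6 and 12.9 CPM in WT and 18.2, 11.6 and 21.3 CPM in the mutant-labelled libraries, so that the same mutant-labelled libraries, replicates 3 and 1, were highest for it and for Dbh. The 7 cranial motor neuron markers measured, of 8 listed, which include both cholinergic genes, summed to 46.9 to 64.0 CPM in WT and 46.6 to 83.6 CPM in the mutant-labelled libraries, with 0 of 7 at an adjusted p under 0.05 or an unadjusted p of at most 0.05 by limma-trend, and their part in the Dbh values was not tested. For Slc6a3 the most alike were 2810459M11Rik (r = 0.965), 9330179D12Rik (0.952), Mogat1 (0.947), Dctd (0.937) and F5 (0.933). With 6 libraries and 2035 candidates, high values of r occur for many genes. The lists for the next 3 genes were added after their values were seen. Slc18a2 was most like Slc17a8 (r = 0.979), a vesicular glutamate transporter gene also used by serotonin neurons, Ddc most like Rln3 (0.978), which encodes the brainstem peptide relaxin-3, and Gch1 most like Eno4 (0.989).

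Around the members, 8 lists with 50 genes covered the rest of the pathway and of the cells. By limma-trend 0 of 50 passed an adjusted p of 0.05, 1 was higher and 3 were lower at an unadjusted p of at most 0.05, against 2.27% and 9.29% of all tested genes, and the median log2 fold change was -0.07, against -0.05 over all tested genes. The cofactor enzymes Pts, Spr, Qdpr and Pcbd1 and the GTP cyclohydrolase regulator Gchfr, which complete or control the step begun by Gch1, gave 0 of 5 at an unadjusted p of at most 0.05, with log2 fold changes of -0.12 to 0.15. The enzymes that break catecholamines down, among them Maoa, Maob, Aldh2 and Sult1a1, gave 0 of 5, with -0.18 to 0.05. Of the receptors, 0 of 9 adrenoceptors (-0.41 to 0.26) and 0 of 5 dopamine receptors had an unadjusted p of at most 0.05. For Drd1, Drd2, Drd3 and Drd5 the log2 fold changes were -0.37 to 0.02, and Drd4 was under the level of 3 reads in 3 of 6 libraries, so no fold is given for it.

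Of 5 other transcription factors of noradrenergic neurons, 0 had an unadjusted p of at most 0.05. Tfap2b, a factor needed by sympathetic and locus coeruleus cells, was at 13.7, 11.3 and 12.8 CPM in WT and at 6.87, 12.8 and 12.7 CPM in the mutant-labelled libraries. Only mutant-labelled replicate 1 was low, the groups overlapped, and the log2 fold change was -0.27 (95% interval -0.77 to 0.23, adjusted p = 0.643 by limma-trend). For Tlx3 and Insm1 the log2 fold changes were -0.29 and -0.11, and that of Tlx3 was 0.51 without the 2 libraries named above. Of 8 midbrain dopamine neuron factors, at an unadjusted p of at most 0.05 En1 was higher (log2 fold change 0.31, adjusted p = 0.429 by limma-trend) with overlapping groups and Otx2 was lower. The En1 value was 0.16 without WT replicate 3 and 0.60 with the Xist term, and its unadjusted p was above 0.05 in 9 of 17 alternatives, among them leaving out WT replicate 2, WT replicate 3, mutant-labelled replicate 1 or mutant-labelled replicate 3 and the fit with a replicate block. Otx2, a factor of the midbrain and forebrain, was at 10.7, 7.86 and 7.99 CPM in WT and at 5.23, 7.60 and 7.17 CPM in the mutant-labelled libraries, without overlap (log2 fold change -0.41, adjusted p = 0.410 by limma-trend). The Otx2 value was -0.26 without WT replicate 1 and -0.24 without mutant-labelled replicate 1, each time with an unadjusted p above 0.05. The unadjusted p was also above 0.05 with both other scalings, limma without the trend, ordinary per-gene variances and a replicate block. With the Xist term the value was -0.28. The dopamine neuron factors Nr4a2 and Pitx3 had log2 fold changes of 0.03 and 0.28 and did not pass either threshold with all libraries. Without WT replicate 1 Nr4a2 was at 0.27, with an unadjusted p under 0.05 (adjusted p = 0.556 by limma-trend). For Pitx3, leaving out single libraries gave 0.15 to 0.43. The peptides and receptors of these neurons (Gal, Npy, Cartpt, Ret, Chrna6, Chrnb3 and Hcrtr1) gave 0 of 7 at an unadjusted p of at most 0.05, with -0.36 to 0.02.

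Of 6 dense core vesicle genes, Cyb561 and Scg2 were lower without overlap. Cyb561, which encodes the vesicle cytochrome that returns electrons to ascorbate for dopamine beta-hydroxylase, was at 59.4, 58.0 and 54.2 CPM in WT and at 50.4, 49.1 and 52.5 CPM in the mutant-labelled libraries. The groups were separate by a small margin, and the log2 fold change was -0.17 (adjusted p = 0.340 by limma-trend), or -0.097 with the Xist term. Scg2, a secretogranin gene, had a log2 fold change of -0.13 (adjusted p = 0.372 by limma-trend), and -0.089 without the 2 libraries named above. Its unadjusted p was above 0.05 in 6 of 17 alternatives, namely that fit, leaving out WT replicate 3, mutant-labelled replicate 2 or mutant-labelled replicate 3 alone, median-of-ratios scaling and the replicate block. Neither passed the adjustment, and a separation in this direction was found for 14.4% of all tested genes.

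The 9 lists for other cell types and regions gave 0 of 58 tested genes at an adjusted p under 0.05, with 2 higher and 5 lower at an unadjusted p of at most 0.05, by limma-trend, against 2.27% and 9.29% of all tested genes. A count of 7 of 58 lies near the 11.6% of all tested genes. The 2 higher were among the 6 glial markers, both without overlap (3.98% of all tested genes in this direction). One was the myelin gene Mbp (log2 fold change 0.35, adjusted p = 0.341 by limma-trend). Mbp was at 0.042 with quantile scaling, where its unadjusted p was above 0.05, and at 0.29 with the Xist term. Of the 7 hypothalamus markers Sim1 was lower (-1.18, adjusted p = 0.359 by limma-trend). The Sim1 value was -0.80 without WT replicate 3, -0.55 at a pseudocount of 1 and -1.94 with the Xist term. It was -0.94 without mutant-labelled replicate 1. There, and with ordinary per-gene variances, the unadjusted p was above 0.05. Of the pituitary markers 4 of 6 were lower at an unadjusted p of at most 0.05. Prl, the only pituitary marker without overlap, was under the level of 3 reads in all mutant-labelled libraries and at about that level in WT replicate 1, so no fold is given for it. The pituitary markers summed to 54.4 and 412 CPM in WT replicates 2 and 3 and to 1.10 to 3.68 CPM in the other 4 libraries. None of the pan-neuronal (6), forebrain (7), cerebellum (5) and Hox (7) markers had an unadjusted p of at most 0.05, and the summed pan-neuronal markers differed little, at 3487 to 3739 CPM in WT and 3501 to 3618 CPM in the mutant-labelled libraries.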

How the data were processed

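The authors extracted total RNA with the RNeasy kit, sequenced it on an Illumina HiSeq, aligned the reads to mm10 with STAR 2.5.3a and, per the study's methods, counted RefSeq transcripts in Partek Flow. The deposited values are CPM, gene counts scaled by the authors to library size, whose lowest value is 0.0001 in every library. The library kit and its strandedness are not given in the sources used here. Only 85.3% to 86.7% of low values came out as whole reads (to 0.1 read), which was too few for a count test. The floor of 3 reads covers counting error only, whereas the 95% intervals come from the spread between libraries.

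From these, log2(CPM + 0.1) was tested with limma-trend (limma 3.58.1, R 4.3.3) over 16762 genes and the exact two-sided permutation test was run on single values. The fit was checked on simulated data. Levels per kb used GENCODE M21 transcript lengths matched through RefSeq accessions, over 6 libraries. The members and the 17 lists were chosen with earlier results of these data known. Genes named from lists were those that passed the adjusted threshold, those whose groups did not overlap at an unadjusted p of at most 0.05 (at most 4 a list), and any gene of the cofactor, transcription factor, dopamine factor and serotonin lists. Some genes of the lists are counted but not reported by name here. Inppl1, the cholinergic genes and the nearest genes of Slc18a2, Ddc and Gch1 were added after their values were seen. Alternatives changed the pseudocount, the filter, the scaling and the variance model, or added a Xist term or a replicate block, or omitted libraries.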

Additional observations from a re-analysis of the deposited data

How the results depend on the processing

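No member passed an adjusted p of 0.05 as reported or in any of the 17 alternatives, and the differences of Dbh and Phox2a stayed above 0 in every alternative that tested them (0.10 to 0.28 for Dbh, 0.30 to 0.84 for Phox2a). The number of members with an unadjusted p of at most 0.05, 1 as reported, was 2 with median-of-ratios scaling and with quantile scaling (Phox2a and Dbh), 0 with a filter at a mean of 1 CPM, which left Phox2a untested, 3 without WT replicate 3 and mutant-labelled replicate 2 together (chosen after seeing the data, Phox2a, Dbh and Slc6a3), and 1 to 2 when single libraries were left out, the 2 arising without mutant-labelled replicate 2. With a term for Xist, which is high only in WT replicates 1 and 2, the count was again 1, but the gene was Slc18a2 (0.41, adjusted p = 0.303 by limma-trend), the median of the members was 0.26 instead of 0.05, and 4 list genes passed the adjusted threshold (Agrp, Avp, Cga and Lhb) instead of 0. Leaving out single libraries gave 0 to 1 list genes, Prl without WT replicate 1, and a members' median of -0.024 to 0.14.

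Differences near 0 changed sign. Under median-of-ratios scaling, quantile scaling and the Xist term in turn, Th (-0.0079 as reported) was 0.034, 0.030 and 0.11, Gch1 was 0.023, 0.061 and 0.42, and Slc6a3 was 0.0045, 0.0016 and 0.18. Leaving out single libraries gave -0.066 to 0.066 for Th, 0.0016 to 0.25 for Ddc, -0.24 to 0.20 for Gch1, -0.18 to 0.16 for Slc18a2, -0.020 to 0.18 for Slc6a2 and -0.15 to 0.061 for Slc6a3, and among list genes -0.42 to 0.024 for Tfap2b, -0.60 to 0.17 for Tlx3 and -0.14 to 0.27 for Nr4a2. Without both libraries named above, Th was -0.10, Ddc -0.00059, Slc18a2 -0.16, Slc6a3 -0.22 and Tlx3 0.51. Median-of-ratios scaling divides all values of a library by the same factor, so it moves all genes nearly alike. The cause of the other sign changes was not tested. The ratios kept their sign in all 9 alternatives each, but leaving out single libraries moved them, to -0.050 to -0.32 for Th to Dbh, -0.10 to -0.39 for Slc6a3 to Dbh, -0.055 to -0.18 for Slc6a2 to Dbh, and 0.034 to 0.20 for Ddc to Th. The groups separated for Slc6a2 to Dbh without WT replicate 1, for Ddc to Th without WT replicate 2, and for Th to Dbh and Slc6a3 to Dbh without mutant-labelled replicate 2. The number of all tested genes past the adjusted threshold, 8 as reported, was 0 with ordinary variances. The median of all tested genes was -0.05, and -0.0092 and 0.0022 under the other 2 scalings.

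The replicate numbers are shared by the genotypes but do not pair the mice by any label, and same-numbered libraries had correlations of deviations of 0.0926, -0.220 and -0.0183. With a replicate block, 0 members passed the adjusted threshold, 1 had an unadjusted p of at most 0.05 (Phox2a, adjusted p = 0.587 by limma-trend) and their median was 0.05. The block also took the unadjusted p of En1, Otx2 and Scg2 above 0.05. Depth limited Phox2a most, at an estimated 14.2 to 31.4 reads a library. p-values measure the spread between 3 mice a genotype.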
